A study of Oryza sativa Japonica Group with 20 samples.

Results

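The genes described here stood high in rice roots after 6 h in 20 µM arsenite and were back near the untreated level after 24 h in the same dose. They were selected on the measured root values themselves: untreated at 0 h, 20 µM at 6 h and 20 µM at 24 h. They are the loci of the root mRNA tables that held at least 20 RPKM (reads scaled for gene length and library depth) at 20 µM and 6 h, that stood there at least 4 times above the untreated value plus 1 RPKM, and that stood at 20 µM and 24 h at most 1.5 times above the untreated value plus 1 RPKM. Of 57624 loci, 57 met all 3 conditions. The first 2 conditions alone were met by 457 loci, so 12.5% of the strongly raised loci were back by 24 h.

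Root and shoot libraries were made from 14-day-old plants of Nipponbare, a japonica rice cultivar, grown in nutrient solution with 16 h of light a day. Seedlings received 20 or 80 µM sodium arsenite, labelled As(III), for 6 h or 24 h, and untreated seedlings were taken at 0 h. Each tissue therefore has 5 groups, which are untreated at 0 h, 20 µM at 6 h, 20 µM at 24 h, 80 µM at 6 h and 80 µM at 24 h, with 1 mRNA library per group. With no replicate, no spread between plants or libraries is known, and differences between single libraries are given as values without a test. In whole organs, fewer cells of a type and less RNA per cell cannot be told apart.

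Arsenite is the reduced form of arsenic that rice roots take up under flooded conditions, and it binds the thiol groups of proteins. Plant roots answer such damage with heat shock proteins, with stress hormones such as abscisic acid, and with defence metabolites. Many genes of these answers are switched on within hours and are then shut down by feedback, and others follow the daily clock.

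The day-night clock moved with the pattern that defines the genes. Arsenite was given at lights-on, at clock hour 9, so the 0 h and 24 h harvests fell at hour 9 and the 6 h harvest at hour 15. LHY (LOC_Os08g06110), a clock gene that peaks at dawn, stood at 54.4 RPKM at 0 h, 11.7 RPKM at 6 h and 44.7 RPKM at 24 h in the 20 µM course of roots, and at 6.5 RPKM at 6 h and 10.1 RPKM at 24 h in 80 µM. The 8 day-phase clock genes summed to 108.9, 242.8 and 117.2 RPKM over 0, 6 and 24 h in 20 µM, and to 273.4 and 249.1 RPKM at 6 h and 24 h in 80 µM, with none at 0. There is no untreated library at hour 15, so at both doses the effect of arsenite at 6 h and the effect of the hour cannot be told apart, and every difference between 24 h and 6 h carries the same limit. Shoots have the same limit and a further one: the 20 µM libraries labelled 6 h and 24 h carry each other's codes in their file headers. LHY stood at 121.1 RPKM in the one labelled 6 h and 45.8 RPKM in the one labelled 24 h, against 114.6 RPKM untreated. The 8 day-phase genes summed to 105.1 and 276.4 RPKM in these libraries, against 98.3 RPKM untreated. In 80 µM shoots they summed to 282.6 RPKM at 6 h and 33.9 RPKM at 24 h, the latter with 1 gene at 0. Whether the 20 µM libraries were exchanged was not tested.

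Marker genes of the tissues also shifted among the root libraries. The 5 leaf photosynthesis markers summed to 257.5 RPKM in untreated roots and to 12.7 to 88.7 RPKM in treated roots, with none at 0, against 2112.5 to 4547.0 RPKM in shoots. The 6 root uptake markers summed to 317.2 RPKM in untreated roots and to 4.7 to 88.7 RPKM in treated roots, where 1 of the 6 was at 0 in each library. At 20 µM and 6 h both lists stood below the untreated level, opposite to the genes described here, and their part in the results was not tested. Depth was similar: the value of 1 read, set to 1 in untreated roots, was between 0.78 and 1.14 in the other libraries.

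Levels of the 57 genes in the root libraries that chose them are a description. Their median was 6.4 RPKM at 0 h, 49.3 RPKM at 6 h and 6.5 RPKM at 24 h in 20 µM, and their 6 h values ran from 20.4 to 332.5 RPKM. All 57 stood at least 2-fold higher at 20 µM and 6 h than untreated, as the rule requires, against 13.6% of the 13802 loci that reached 5 RPKM in either library. Differences between libraries here and below are on the log2(RPKM + 1) scale, which understates the change of low genes. In 45 of the 57 the highest root value was that at 20 µM and 6 h, and in the other 12 it was that at 80 µM and 6 h. Across all 10 libraries of both tissues 40 genes were highest in the 20 µM 6 h root library, and 24 stood there at least 2-fold above every other library. The rule asked for a high value in that library, and these counts were not taken over all loci. Nothing is therefore read from them or from the 45.

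**Figure D1:**
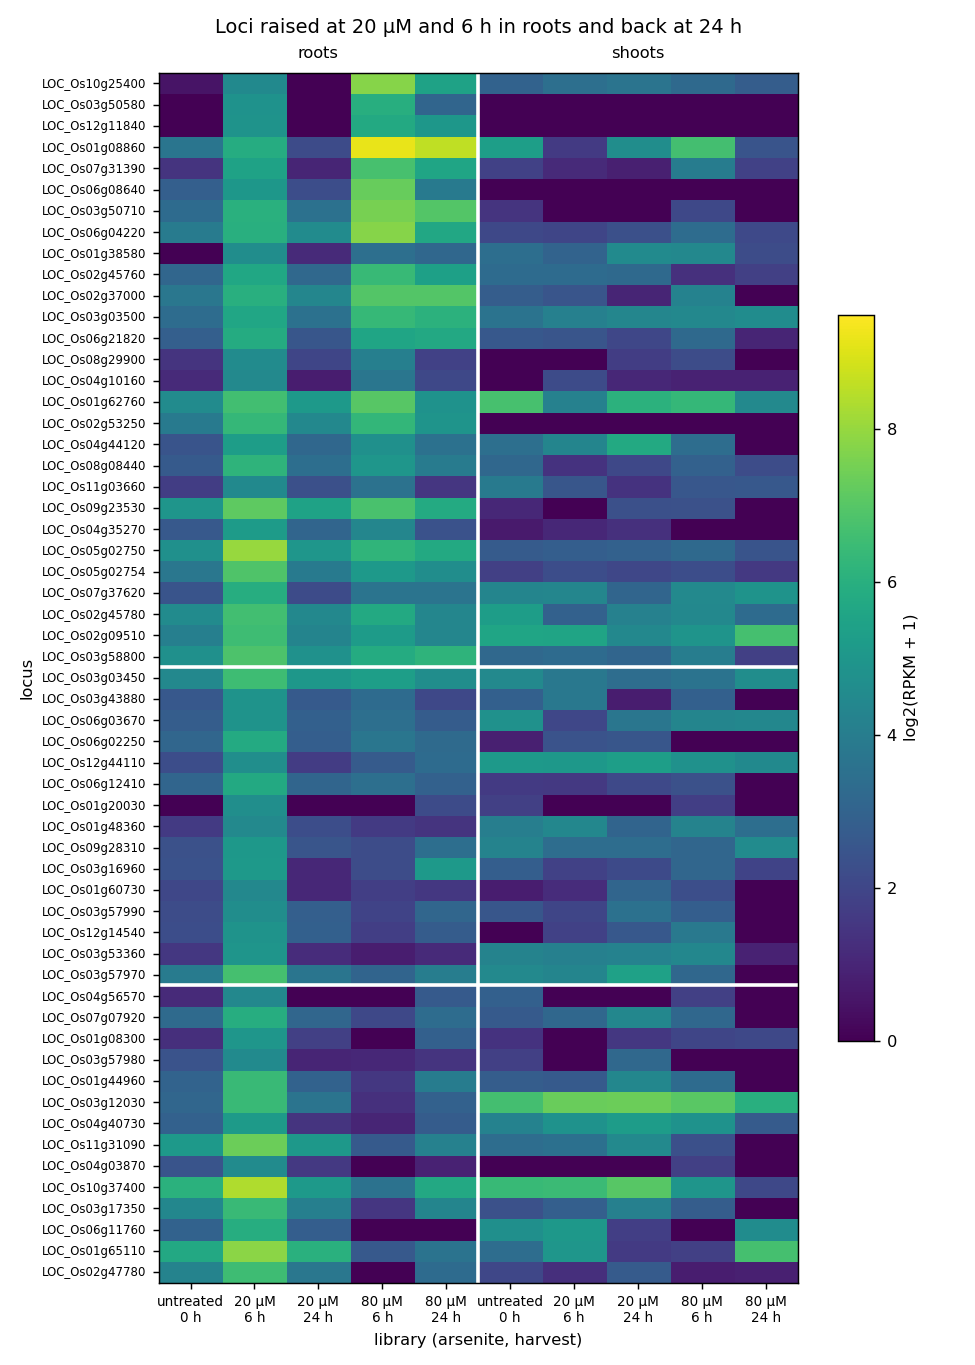
Level of each of the 57 genes (rows, by locus identifier) in the 5 root and 5 shoot libraries (columns), coloured by log2(RPKM + 1). White lines part the genes at least 2-fold higher at 80 µM and 6 h than in untreated roots (28, top), those within 2-fold, and those at least 2-fold lower (bottom); the 20 µM 6 h root column is bright throughout, since the rule chose it.

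The genes just inside and outside each limit lay close together. LOC_Os01g60730 and LOC_Os04g56570 entered at 20.4 and 20.6 RPKM, and LOC_Os01g24030 and LOC_Os03g47530 stayed out at 19.8 RPKM each. On the increase, LOC_Os03g17350 and LOC_Os02g45780 entered at 4.06 and 4.08 times, and LOC_Os07g46610 and LOC_Os07g47210 stayed out at 3.93 and 3.92 times. On the return, LOC_Os08g08440 and LOC_Os06g04220 entered at 1.49 and 1.48 times, and LOC_Os04g40990 and LOC_Os03g56944 stayed out at 1.51 and 1.53 times. Membership near the limits therefore rests on small differences between single libraries.

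Of the 57 genes, 4 carry a name that could be checked, and they belong to 4 responses: abscisic acid signalling, cold and drought regulation, diterpenoid defence and heat shock. The deposited tables give MSU locus identifiers without names, so names were taken from general knowledge of locus numbers. They are printed only where the reference gene table lists the symbol on the same chromosome. The list counts below also hold genes without that check, since 155 of the 267 identifiers in the lists passed it. The other 53 genes are given by identifier only.

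PP2C9 (LOC_Os01g62760) is a protein phosphatase of the group that holds abscisic acid signalling in check. It stood at 22.7 RPKM at 0 h, 98.7 RPKM at 6 h and 33.0 RPKM at 24 h in the 20 µM course of roots, and at 130.7 RPKM at 6 h and 27.4 RPKM at 24 h in 80 µM. The 2 root libraries of the 6 h harvest were thus the high ones at both doses. In shoots it was highest untreated, at 105.4 RPKM, and stood at 17.2 RPKM and 67.2 RPKM in the 20 µM libraries labelled 6 h and 24 h and at 79.9 RPKM and 21.4 RPKM in 80 µM at 6 h and 24 h.

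Other abscisic acid genes that stood higher at 20 µM and 6 h stayed above that return limit at 24 h. The list held 17 genes, of which 11 reached 5 RPKM at 20 µM and 6 h or untreated. Of these, 8 stood at least 2-fold higher at 20 µM and 6 h and none lower, and PP2C9 was the only one of the 8 back within 1.5 times at 24 h. For comparison, 34.9% of all 1871 loci at least 2-fold higher at 6 h were back by that measure. Of the 457 loci that met the first 2 conditions of the rule, 12.5% were back. The median log2 difference of the 11 genes at 20 µM and 6 h was 2.9. The rule chose PP2C9 for its return, and not all of the 8 held 20 RPKM at 6 h. Nothing is therefore read from 1 of 8 back. A pair of related phosphatases shows the difference from PP2C9.
PP2C68 (LOC_Os09g15670) stood at 5.8, 67.2 and 30.7 RPKM over 0, 6 and 24 h in 20 µM, and PP2C30 (LOC_Os03g16170) at 1.2, 30.3 and 14.2 RPKM. NCED3 (LOC_Os03g44380), an enzyme of abscisic acid synthesis, stood at 0.6, 14.3 and 8.2 RPKM in the same course. Each of the 3 was high at 6 h and lower, but still well above untreated, at 24 h.

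DREB1C (LOC_Os06g03670) is a transcription factor of the DREB1 family, which switches on cold and drought response genes. In the 20 µM course of roots it stood at 5.9, 28.5 and 6.5 RPKM over 0, 6 and 24 h, and in 80 µM at 10.1 RPKM at 6 h and 5.8 RPKM at 24 h. Only the 20 µM 6 h root library was more than 2-fold above untreated roots. Shoot levels were 3.1 and 12.2 RPKM in the 20 µM libraries labelled 6 h and 24 h, and 18.9 and 20.3 RPKM in 80 µM at 6 h and 24 h, all below the untreated shoot level.

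The list of DREB and ERF factors held 20 genes. Of 18 that reached 5 RPKM, 6 stood at least 2-fold higher at 20 µM and 6 h and 1 lower, and 4 of the 6, DREB1C among them, were back within 1.5 times at 24 h. DREB1B (LOC_Os09g35010) stood at 4.3, 15.9 and 1.5 RPKM over 0, 6 and 24 h, and DREB1E (LOC_Os04g48350) at 1.6, 6.6 and 0.0 RPKM; neither met the 20 RPKM minimum. In 80 µM roots at 6 h DREB1B was at 1.7 RPKM and DREB1E was listed at 0. Of the NAC, MYB and zinc finger factors, 12 of 18 stood at least 2-fold higher at 20 µM and 6 h and none lower. At 24 h 0 of the 12 were back. NAC4 (LOC_Os01g60020), one of these stress factors, stood at 23.5, 119.1 and 93.9 RPKM over 0, 6 and 24 h. Over all 1871 loci at least 2-fold higher at 6 h, 34.9% were back. Both list counts reuse the libraries of the rule, and DREB1C was chosen for its return. No difference between the lists is therefore read from them.

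CYP99A2 (LOC_Os04g10160) is a cytochrome P450 of the gene cluster on chromosome 4 that makes momilactones, the diterpenoid defence compounds of rice. Its root level was 1.2 RPKM at 0 h, 21.2 RPKM at 6 h and 0.7 RPKM at 24 h in 20 µM, and 12.1 RPKM at 6 h and 3.2 RPKM at 24 h in 80 µM. Both 6 h root libraries were high. In shoots it was listed at 0 untreated and lay between 0.9 and 3.5 RPKM in the 4 treated libraries.

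CPS4, KSL4 and MAS, 3 other genes of the pathway, were raised at the same harvest and returned less completely. CPS4 (LOC_Os04g09900), an early cyclase of momilactone synthesis, stood at 2.0, 24.5 and 9.3 RPKM over 0, 6 and 24 h in 20 µM. KSL4 (LOC_Os04g10060), the next cyclase, was listed at 0 at 0 h and stood at 7.6 RPKM at 6 h and 2.1 RPKM at 24 h. MAS (LOC_Os04g10010), a dehydrogenase late in the same pathway, stood at 1.7, 93.1 and 12.8 RPKM. All 3 were high at 6 h and lower at 24 h, and stayed above 1.5 times untreated plus 1. Over the whole diterpenoid list of 16 genes, 8 reached 5 RPKM at 20 µM and 6 h or untreated. Of these, 7 stood at least 2-fold higher at 6 h and none lower. At 24 h 3 of the 7 were back, CYP99A2 among them by the rule, and the rest of the 3 are not named here. Of all 1871 loci at least 2-fold higher at 6 h, 34.9% were back. Of the 457 loci that met the first 2 conditions of the rule, 12.5% were back. The list count reuses the libraries of the rule, so nothing is read from it. In 80 µM roots at 6 h CPS4 stood at 11.2 RPKM, KSL4 at 18.8 RPKM and MAS at 64.0 RPKM.

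HSP18.0 (LOC_Os01g08860), a small heat shock protein that keeps damaged proteins from clumping, was highest in the 80 µM roots. In the 20 µM course of roots it stood at 11.9, 58.7 and 3.5 RPKM over 0, 6 and 24 h, and in 80 µM at 584.9 RPKM at 6 h and 383.7 RPKM at 24 h. The return at 24 h was thus seen at the lower dose and not at the higher one. In shoots it stood at 38.9 RPKM untreated, 2.1 and 24.4 RPKM in the 20 µM libraries labelled 6 h and 24 h, and 100.8 RPKM and 4.5 RPKM in 80 µM at 6 h and 24 h.

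Of the other heat shock genes raised at 20 µM and 6 h, some were back at 24 h and some were not. Of 16 on the list, 8 reached 5 RPKM at 20 µM and 6 h or untreated. Of these, 5 stood at least 2-fold higher at 6 h and 1 lower. At 24 h 3 of the 5 were back, against 34.9% of all 1871 loci, but HSP18.0 is among the 3 by the rule. The others back were HSP24.1 and HSFC1b. HSFA3 (LOC_Os02g32590), at 2.4, 11.3 and 5.5 RPKM over 0, 6 and 24 h, and SPL7 (LOC_Os05g45410), at 4.4, 10.2 and 13.0 RPKM, were not back. HSP24.1 (LOC_Os02g52150), another small heat shock protein, stood at 17.1, 36.0 and 13.4 RPKM over 0, 6 and 24 h in 20 µM and at 453.9 and 285.8 RPKM at 6 h and 24 h in 80 µM. HSFC1b (LOC_Os01g53220), a heat stress factor gene, stood at 0.7, 9.7 and 0.0 RPKM in 20 µM, was listed at 0 at 6 h and stood at 2.1 RPKM at 24 h in 80 µM. At 80 µM 11 of 14 listed genes stood at least 2-fold higher than untreated at 6 h and 10 of 13 at 24 h, against 19.0% and 17.5% of all loci.

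**Figure D2:**
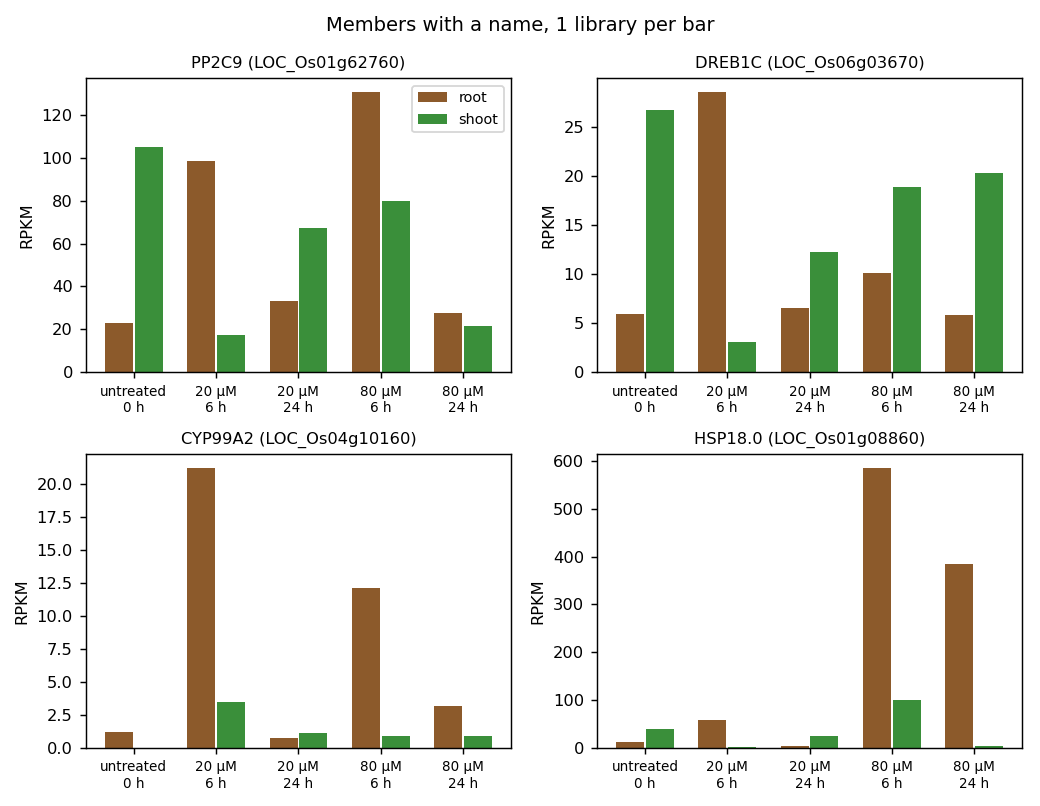
RPKM of the 4 genes with a name in roots (brown) and shoots (green); each bar is 1 library, with no error bar since there are no replicates. PP2C9 and CYP99A2 are high in both 6 h root libraries, DREB1C in the 20 µM 6 h root library alone, and HSP18.0 is highest at 80 µM, at 584.9 and 383.7 RPKM.

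The other lists held no member, and the plot of list counts gives them side by side. Among jasmonate repressors 6 of 12 measured genes stood at least 2-fold higher at 20 µM and 6 h and 1 of the 6 was back at 24 h. That one was JAZ13 (LOC_Os10g25230), a repressor of jasmonate responses, with 15.5, 55.4 and 21.6 RPKM over 0, 6 and 24 h. WRKY factors gave 12 of 30 higher and 1 lower at 6 h, with 1 of the 12 back. Day-phase clock genes gave 4 of 8 higher and none lower, with 2 of the 4 back, among them GI (LOC_Os01g08700) at 39.8, 83.9 and 41.0 RPKM. Nutrient uptake genes gave 1 higher and 7 lower of 14, the higher one being NAS3 (LOC_Os07g48980), a nicotianamine synthase, at 7.7, 20.8 and 9.0 RPKM. Jasmonate synthesis and perception genes gave 6 higher with 1 back, defence proteins 4 with 1 back, cytokinin genes 3 with 0 back, and respiration and fermentation genes 3 with 1 back.

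**Figure D3:**
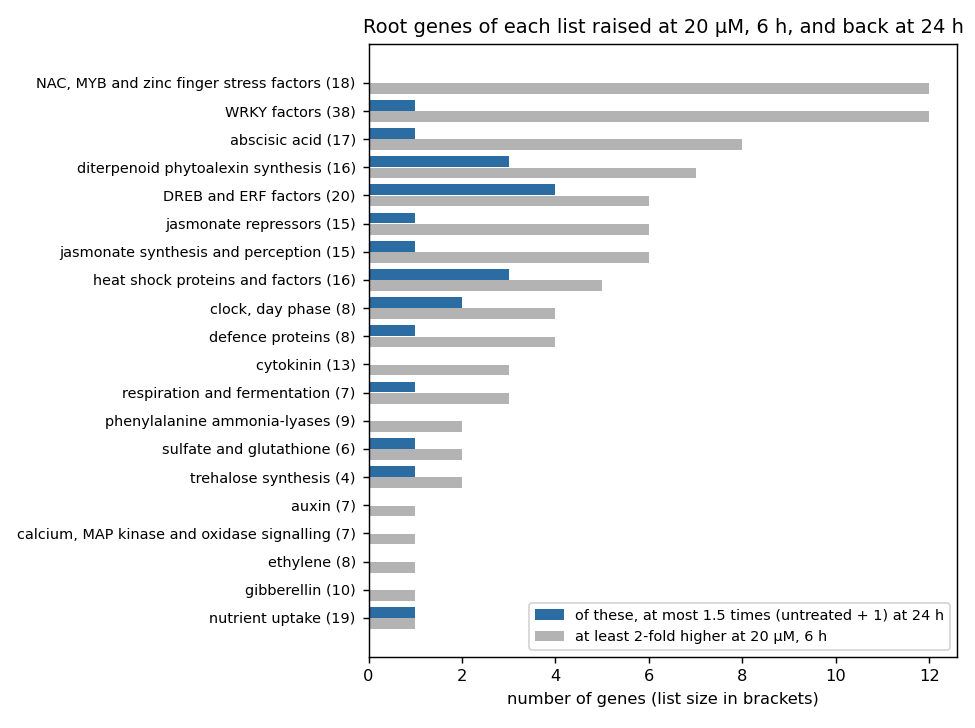
Number of genes of each list (list size in brackets) at least 2-fold higher at 20 µM and 6 h than in untreated roots (grey), and the number of these at most 1.5 times the untreated value plus 1 RPKM at 24 h (blue). DREB and ERF factors have 4 of 6 back at 24 h, and NAC, MYB and zinc finger factors have 0 of 12. Over all 1871 loci at least 2-fold higher at 6 h, 34.9% were back. The counts include the 4 members with a name, which the rule chose for their return.

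The genes with the highest 20 µM 6 h values differed widely at 80 µM. LOC_Os10g37400 had the highest value of all, with 66.1, 332.5 and 34.6 RPKM over 0, 6 and 24 h in 20 µM and 10.9 and 52.4 RPKM at 6 h and 24 h in 80 µM. LOC_Os01g65110 stood at 52.4, 228.7 and 64.1 RPKM in 20 µM and at 5.3 and 11.4 RPKM in 80 µM. LOC_Os11g31090 stood at 33.4, 162.2 and 32.4 RPKM in 20 µM and at 5.5 and 17.0 RPKM in 80 µM. In these 3 the 80 µM libraries lay below the untreated one at both harvests.
By contrast, LOC_Os09g23530 stood at 29.7, 140.9 and 43.9 RPKM in 20 µM and at 108.0 and 54.4 RPKM in 80 µM. LOC_Os03g58800 stood at 26.2, 113.1 and 26.9 RPKM in 20 µM and at 56.6 and 70.8 RPKM in 80 µM. Both were above untreated in both 80 µM libraries.

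LOC_Os05g02750 and LOC_Os05g02754, 4 numbers apart on chromosome 5, may not be separate measurements. The first stood at 26.6, 260.1 and 31.2 RPKM over 0, 6 and 24 h in 20 µM and at 72.8 and 53.7 RPKM at 6 h and 24 h in 80 µM. The second stood at 12.5, 118.1 and 14.1 RPKM in 20 µM and at 33.8 and 24.3 RPKM in 80 µM. Their ratio stayed between 1.68 and 2.25 in all 10 libraries, so whether the 2 models share reads is uncertain and they may be 1 observation.

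The genes with the largest increase at 20 µM and 6 h were low or listed at 0 before it. LOC_Os12g11840, LOC_Os03g50580, LOC_Os01g20030 and LOC_Os01g38580 were listed at 0 in untreated roots and stood at 28.4, 27.8, 24.8 and 24.5 RPKM at 20 µM and 6 h. At 24 h in 20 µM the first 3 were again listed at 0 and LOC_Os01g38580 stood at 1.2 RPKM.
In 80 µM LOC_Os12g11840 stood at 52.9 RPKM at 6 h and 31.7 RPKM at 24 h, and LOC_Os03g50580 at 61.2 RPKM and 7.5 RPKM. LOC_Os01g20030 was listed at 0 at 6 h in 80 µM and stood at 3.5 RPKM at 24 h. These values may rest on few reads, since the lowest listed value of a gene bounds the value of 1 read: by that bound LOC_Os12g11840 had at least 1.0 read at 20 µM and 6 h, LOC_Os03g50580 at least 2.8 and LOC_Os01g20030 at least 10.7. Over the 57 genes the bound was under 10 reads in 14, and its median was 21.8 reads.
Firmer examples with a large increase were LOC_Os07g31390, at 1.7, 43.2 and 1.0 RPKM over 0, 6 and 24 h in 20 µM and 105.0 and 47.4 RPKM in 80 µM, and LOC_Os10g25400, at 0.4, 21.5 and 0.0 RPKM in 20 µM and 216.9 and 43.1 RPKM in 80 µM. LOC_Os07g37620 stood at 4.5, 59.0 and 3.5 RPKM in 20 µM and at 11.6 RPKM at both harvests in 80 µM. LOC_Os08g08440 stood at 5.5, 71.2 and 9.7 RPKM in 20 µM and at 30.5 and 14.6 RPKM in 80 µM. LOC_Os03g53360 stood at 1.9, 30.3 and 1.3 RPKM in 20 µM and at 0.7 and 1.2 RPKM in 80 µM, so it was high in 1 root library alone. LOC_Os01g08300 stood at 1.4, 30.7 and 2.5 RPKM in 20 µM, was listed at 0 at 6 h in 80 µM and stood there at 6.5 RPKM at 24 h.

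The 80 µM root libraries, which the rule did not use, differed among the genes. At 80 µM and 6 h, harvested at the same hour as 20 µM and 6 h, 45 of the 57 reached 5 RPKM there or untreated, and 28 of these stood at least 2-fold higher than untreated and 10 at least 2-fold lower. Over all 13959 loci 19.0% were higher and 48.7% lower. The median log2 difference was 1.42 over the 45 genes and −0.93 over the loci with the same minimum level, and 0.90 over all 57 genes. At 80 µM and 24 h, 48 genes reached 5 RPKM, of which 23 were higher and 2 lower, against 17.5% and 35.9% of 14128 loci, and the medians were 0.96 over the 48 genes, −0.47 over those loci and 0.91 over all 57 genes. Both comparisons reuse the untreated root library that the rule used, so these counts are a description.

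**Figure D4:**
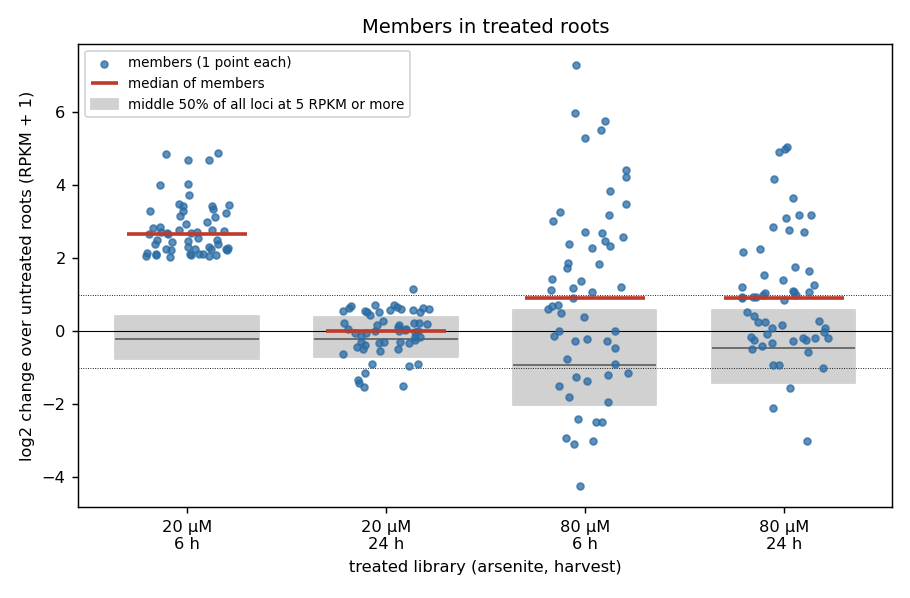
Log2 difference over untreated roots, on RPKM + 1, of each of the 57 genes (points, with their median in red) in the 4 treated root libraries; grey bands hold the middle 50% of all loci at 5 RPKM or more, and dotted lines mark 2-fold. The 20 µM values were set by the rule, and at 80 µM and 6 h the genes spread from −4.25 to 7.28.

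Taken over both 80 µM harvests, 51 of the 57 genes reached 5 RPKM there or untreated, as did 14621 loci in all. Of the 51, 18 (35.3%) stood at least 2-fold higher than untreated at both harvests, against 12.6% of these loci. A further 10 (19.6%) were higher at 6 h and not at 24 h, against 6.11%, and 5 (9.8%) at 24 h and not at 6 h, against 5.23%. Within 2-fold at both were 8 genes (15.7%), against 24.8%, and lower at 6 h and not higher at 24 h were 10 (19.6%), against 46.9%. HSP18.0 belongs with the first set, PP2C9 and CYP99A2 with the second, and DREB1C with those within 2-fold. At 80 µM and 6 h, 35 of the 57 stood at least 2-fold below their own 20 µM 6 h level and 7 at least 2-fold above it, against 38.3% and 15.2% of 12015 loci. Since the genes were chosen for high values at 20 µM and 6 h, nothing is read from these counts.

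Between 80 µM at 24 h and 80 µM at 6 h, both outside the rule, the genes went either way. Of 50 that reached 5 RPKM in either library, 16 stood at least 2-fold lower at 24 h and 14 at least 2-fold higher, against 14.7% lower and 25.1% higher over 10652 loci. The median log2 difference was −0.45 over the 50 genes and 0.28 over those loci, and −0.24 over all 57 genes. There is no replicate to test it.
LOC_Os06g08640 was the furthest lower, at 14.1 RPKM at 24 h against 156.3 RPKM at 6 h, followed by LOC_Os03g50580, by LOC_Os10g25400, by LOC_Os08g29900 at 2.6 RPKM against 16.3 RPKM, and by PP2C9. LOC_Os02g47780 was the furthest higher, at 9.0 RPKM at 24 h against a listed 0 at 6 h. After it came LOC_Os01g08300, LOC_Os03g16960 at 33.5 RPKM against 3.6 RPKM, LOC_Os03g17350 at 19.0 RPKM against 1.8 RPKM, and LOC_Os04g56570 at 5.4 RPKM against a listed 0. In LOC_Os03g16960 the 24 h level at 80 µM was close to the 34.0 RPKM of 20 µM at 6 h, whereas in the others that were higher at 24 h it stayed well below the 20 µM 6 h level.

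A contrast outside the rule was fitted over 3 pairs of libraries of different tissue or dose, which are roots at 80 µM, shoots at 20 µM and shoots at 80 µM, each at 24 h against 6 h. Limma with the pair as a block and Benjamini-Hochberg adjustment called 0 of 16857 loci at an adjusted p under 0.05 (0.0%), with 173 at an unadjusted p under 0.05 and a smallest adjusted p of 1. Of the 55 genes tested, 0 were called and 2 were at an unadjusted p under 0.05. Their median estimate was −0.33 on the log2 scale, against −0.05 over all loci. The smallest p was that of LOC_Os03g43880, with a log2 difference of −2.41 ± 0.67 (SE, 3 pairs), an unadjusted limma p of 0.0064 and an adjusted p of 1. It stood lower at 24 h than at 6 h in 3 of 3 pairs, at 3.2 against 9.1 RPKM in 80 µM roots, 0.7 against 13.1 RPKM in 20 µM shoots and 0.0 against 6.6 RPKM in 80 µM shoots. With the 20 µM shoot pair turned, as its header codes have it, this locus was lower in 2 of 3 pairs, with a log2 difference of −0.38 ± 1.05 (SE) and an unadjusted limma p of 0.728. The turned fit called 0 loci, with 1070 at an unadjusted p under 0.05, and the medians were −0.56 over the 55 genes and −0.08 over all loci.
Without the shoot pair at 20 µM, whose time codes conflict, 2 loci were called higher and 10 lower but no member, and the median over the 53 genes tested was −0.82, against −0.09 over all loci. Leaving out the shoot pair at 80 µM gave 17 loci called higher and 14 lower, again no member, and medians of −0.10 and 0.17.

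In shoots the levels of the 57 genes ranged from 0 to well above those in roots. In untreated shoots, set against untreated roots, 17 of 45 genes at 5 RPKM stood at least 2-fold higher and 15 lower, against 21.1% and 20.8% of 15366 loci. There were 15 genes below 5 RPKM in all 5 shoot libraries, of which 4 were listed at 0 in all of them, namely LOC_Os02g53250, LOC_Os06g08640, LOC_Os12g11840 and LOC_Os03g50580. At the other end 23 genes reached 20 RPKM in at least 1 shoot library.

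Against untreated shoots the share of the genes that stood lower was above the share of all loci in each of the 4 treated libraries, and the share that stood higher was above it in 2. In the 20 µM library labelled 6 h, 1 of 35 genes (2.86%) was at least 2-fold higher and 8 (22.9%) lower, against 6.2% and 9.92% of 13572 loci. In the one labelled 24 h, 11 of 40 (27.5%) were higher and 12 lower, against 10.3% and 12.3% of 13704 loci. At 80 µM and 6 h 5 of 39 (12.8%) were higher and 9 (23.1%) lower, against 9.38% and 12.6% of 13936 loci. At 80 µM and 24 h 3 of 34 (8.82%) were higher and 19 (55.9%) lower, against 9.15% and 30.1% of 13030 loci. In the last library 25 of the 57 genes (43.9%) were listed at 0, against 8 (14.0%) in untreated shoots. Of the 3962 loci at 20 RPKM or more in 20 µM 6 h roots, 11.3% were listed at 0 in that library and 4.37% in untreated shoots, and the loci at 5 RPKM or more numbered 9129 there and 12248 in untreated shoots. The median log2 difference in that library was −1.34 over the 34 genes and −0.44 over the loci with the same minimum level, and −0.92 over all 57 genes. The 4 comparisons share 1 untreated library. Between the harvests as labelled, 24 h against 6 h, 14 of 34 genes were higher and 6 lower in 20 µM shoots, against 11.0% and 9.49% of 13405 loci. In 80 µM shoots 5 of 36 were higher and 22 lower, against 15.2% and 35.6% of 13477 loci.

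**Figure D5:**
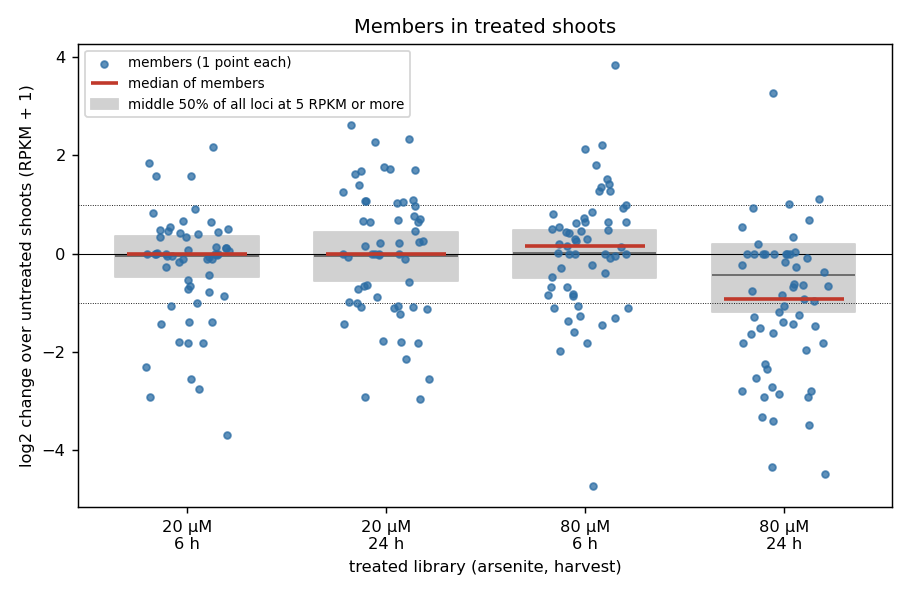
Log2 difference over untreated shoots, on RPKM + 1, of each of the 57 genes (points, with their median in red) in the 4 treated shoot libraries as labelled; grey bands hold the middle 50% of all loci at 5 RPKM or more, and dotted lines mark 2-fold. Medians lie near 0 in 3 libraries and at −0.92 at 80 µM and 24 h.

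The genes with the highest shoot levels show how far the tissues part. LOC_Os03g12030 stood in shoots at 99.7 RPKM untreated, 158.8 and 164.5 RPKM in the 20 µM libraries labelled 6 h and 24 h, and 134.4 and 63.1 RPKM in 80 µM at 6 h and 24 h. In roots it stood at 7.8, 85.3 and 11.7 RPKM over 0, 6 and 24 h in 20 µM and at 1.5 and 6.7 RPKM in 80 µM. It was abundant in every shoot library and in 1 root library.
LOC_Os12g44110 likewise lay between 21.5 and 38.9 RPKM in all 5 shoot libraries. LOC_Os04g40730 stood in shoots at 17.6 RPKM untreated, 28.0 and 37.5 RPKM in 20 µM, and 28.0 and 5.7 RPKM in 80 µM. LOC_Os10g37400 stood at 83.9 RPKM untreated, 88.1 and 131.4 RPKM in 20 µM, and 29.9 and 3.2 RPKM in 80 µM. The last 2 were lowest in the 80 µM 24 h shoot library.
Others were highest there. LOC_Os01g65110 stood in shoots at 9.6 RPKM untreated, 30.8 and 2.1 RPKM in the 20 µM libraries labelled 6 h and 24 h, and 2.5 and 101.6 RPKM in 80 µM at 6 h and 24 h. LOC_Os02g09510 stood at 46.8, 45.5, 20.9, 29.1 and 102.7 RPKM in the same order. The dawn gene LHY stood at 248.1 RPKM in the 80 µM 24 h shoot library and 48.8 RPKM in the 80 µM 6 h one. It had the same rank order over the 5 shoot libraries as LOC_Os01g65110, a likeness seen after the values. In the 20 µM course of roots the 2 genes went opposite ways. At 6 h LOC_Os01g65110 was at its highest there, 228.7 RPKM, as the rule required, and LHY at its lowest, 11.7 RPKM. The part of harvest hour in these levels was not tested.

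By position, the 57 genes lay on all 12 chromosomes, with 13 on chromosome 3 and 9 on chromosome 1. Only 7 had another member within 30 MSU numbers, where neighbouring loci usually differ by 10. Beside the pair on chromosome 5, LOC_Os03g57970, LOC_Os03g57980 and LOC_Os03g57990 lie in a row on chromosome 3. At 20 µM and 6 h they held 103.9, 22.2 and 24.5 RPKM, against 14.4, 4.4 and 3.6 RPKM untreated. After 6 h in 80 µM they held 7.3, 1.1 and 2.8 RPKM, below untreated in all 3. LOC_Os02g45760 and LOC_Os02g45780 on chromosome 2 shared the 20 µM course, with 7.9, 49.3 and 8.3 RPKM and 22.9, 97.6 and 20.7 RPKM over 0, 6 and 24 h. They parted at 80 µM, where the first stood at 84.1 and 41.5 RPKM at 6 h and 24 h and the second at 53.4 and 19.3 RPKM.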

How the data were processed

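Each mRNA library has a table of RPKM values that the authors deposited, rounded to 1 decimal, for MSU locus identifiers. BWA is named, without a version, per the submitters' processing notes. Genome build, annotation and read counter were not given in the sources used here. Per the labels' protocols mRNA was selected with oligo(dT), primed with random hexamers and read from both ends. Absolute depth is unknown. The relative value of 1 read was taken from the most frequent ratio of low values between libraries. The 10 miRNA libraries were not used.

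Differences were taken on log2(RPKM + 1), with a minimum of 5 RPKM in 1 of the libraries compared and 2-fold as the limit. The 6 libraries of the 3 pairs outside the rule (24 h against 6 h within a tissue and dose) were fitted with limma 3.58.1 (R 4.3.3, intensity trend, 2 residual degrees of freedom). Its residual measures how the time difference varies over pairs. Alternatives changed the pseudocount, filter, scaling, trend and pairs, or left out LOC_Os05g02754 or the genes with a read bound under 10. Python 3.11.15 was used otherwise.

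The members and lists were chosen with earlier results of these data known, and list names come from general knowledge: of 267 identifiers the reference table (RefSeq ASM3414082v1) lists 155 by symbol on the same chromosome, 152 with a single place, and all 152 run in the order of the MSU numbers. Names that are not listed are not printed, though their genes are part of the list counts. Named loci were the 10 highest and the 10 most raised at 20 µM and 6 h, those with a checked name, the 8 highest in shoots, the 5 furthest each way between the 80 µM harvests, neighbours within 30 MSU numbers and those next to the limits. Other loci were named after their values were seen: LOC_Os03g43880, genes listed at 0 in all shoot libraries, and list genes.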

Additional observations from a re-analysis of the deposited data

Results flagged for a closer look

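LOC_Os02g45760 moved in opposite directions in the tissues at 80 µM. In roots its log2 difference over untreated was 3.26 at 6 h and 2.26 at 24 h, and in shoots −1.99 and −1.50. The gap between the mean differences of roots and shoots was 4.5 on the log2 scale. The shoot values were low, at 8.9 RPKM untreated and 1.5 and 2.5 RPKM in 80 µM at 6 h and 24 h. In the 20 µM shoot libraries labelled 6 h and 24 h the gene stood at 9.0 and 8.4 RPKM, close to untreated. With 1 library per group the gap between the tissues was not tested.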

How the results depend on the processing

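The number of members was 61 with root libraries scaled by median ratios, 60 with a constant of 5 RPKM in the rule and 56 with 0.1 RPKM, but the genes changed: 42, 26 and 45 of them were among the 57. With a pseudocount of 5 RPKM the count of genes lower at 80 µM and 6 h in roots was 6, that of genes higher at 80 µM and 24 h was 14, and that of genes higher at 24 h than at 6 h in 80 µM was 8. In shoots the same pseudocount gave 5 lower in the 20 µM library labelled 6 h, 6 higher and 6 lower in the one labelled 24 h, and 4 lower at 80 µM and 6 h. Without a filter on low values 4 genes were lower at 80 µM and 24 h in roots, 4 higher and 13 lower in the 20 µM shoots labelled 6 h, and 9 higher in shoots at 80 µM and 6 h. A pseudocount of 0.1 RPKM gave 2 higher in the 20 µM shoots labelled 6 h, and median ratio scaling 9 higher at 24 h than at 6 h in 80 µM roots. Keeping the 43 genes with at least 10 reads by the bound, an alternative chosen after seeing the data, left 15 higher at 80 µM and 24 h in roots and 1 higher in shoots at 80 µM and 24 h. Of 114 alternative counts, 95 stayed within 1.5 times the reported one. Part of these could hardly move. Leaving out LOC_Os05g02754, also chosen after seeing the data, changes a count by 1 at most, and many limma counts were 0 in both. Leaving out 1 of the 3 pairs, limma called 0 to 17 loci higher and 0 to 14 lower at 24 h, and 0 members each time; its other settings called 0, including the 20 µM shoot pair turned, also chosen after seeing the data. The cause of these shifts was not tested. By replicate number, no paired analysis was possible because every group has 1 library with the same number; the limma pairs are the harvests of 1 tissue and dose. The read bound was under 10 in 14 of the 57 genes. It is a lower limit and is also small where a gene is never listed low, so their read numbers are not known. PP2C9, for example, had a bound of 5.7 reads at 98.7 RPKM, since its lowest value was 17.2 RPKM.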

Other observations

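Of the 302 loci within 30 MSU numbers of a member that are no members themselves, 102 reached 5 RPKM at 20 µM and 6 h or untreated, and 19 of these (18.6%) stood at least 2-fold higher at 20 µM and 6 h, against 13.6% of all loci. Values of 3 of them follow. LOC_Os04g56560, next to the member LOC_Os04g56570, stood at 2.5, 118.9 and 87.1 RPKM over 0, 6 and 24 h in 20 µM roots, whereas the member stood at 1.2, 20.6 and 0.0 RPKM. LOC_Os09g23560, close to the member LOC_Os09g23530, stood at 4.6, 203.0 and 71.5 RPKM. LOC_Os03g03440, next to the member LOC_Os03g03450, did return, with 20.0, 50.9 and 19.2 RPKM. These loci were chosen after their values were seen.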
